A study of Mus musculus with 6 samples.

Results

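The mitochondrial ribosomal protein genes were taken as all genes whose annotated symbol starts with Mrpl or Mrps followed by a digit. There were 76 of them among the 19057 named genes of the array, read by 132 of 34885 probes with 1 gene symbol. Of these, 75 had a probe that passed the filter on dim probes, and Mrps14, a protein of the small subunit, was detected on none of the 6 arrays. Mrpl41 and Mrps36 were not analysed here.

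The KO group was 3 mouse embryos of genotype Fgfr2 fx/fx that were positive for Le-Cre, and the WT group was 3 wild type embryos. Both were of mixed FVB and 129 background and were taken at embryonic day 14.5. Le-Cre is a transgene that drives Cre in the surface ectoderm of the developing eye, and Fgfr2 is a receptor for fibroblast growth factors. Because the control embryos lacked the transgene, its presence and the loss of Fgfr2 cannot be told apart. RNA came from laser-microdissected fornical conjunctival epithelium of 1 embryo per array, although the extraction text of the labels speaks of prospective lens tissue. The comparison asks how expression in this epithelium differs when it lacks Fgfr2.

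Mitochondria have a ribosome of their own, which makes the few proteins encoded in mitochondrial DNA, all of them core parts of the respiratory chain complexes and the ATP synthase. Its RNAs come from mitochondrial DNA, while every one of its proteins is encoded in the nucleus, made in the cytosol and imported. Some of these proteins descend from those of the bacterial ribosome and sit near its conserved core, and others were added during the evolution of mitochondria and lie mostly at the surface. Proteins of the large subunit carry the prefix Mrpl and those of the small subunit carry Mrps, with a few exceptions such as Mrps30 and Mrps18a, which lie in the large subunit.

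Promoter stretches are shown because many genes for mitochondrial proteins carry sites for the transcription factors NRF1, GABPA (an ETS factor) and YY1. The stretches below are the 150 bases before the annotated start, from RefSeq on build GRCm38.p6, written 5′ to 3′ on the strand of the gene, with the motif match in capitals. Mrps22 and Mrpl27 had low KO values, Mrpl51 had the most positive difference, and all 3 held the ETS core. Mrpl12 had low KO values too and held the NRF1 core. Mrpl50 had the most negative difference of all members and held none of the 3 cores, and neither did Mrpl55, with low KO values, or Mrps7, with high ones, whose stretches are not printed.
Mrps22, chr9:98601680-98601829, strand minus: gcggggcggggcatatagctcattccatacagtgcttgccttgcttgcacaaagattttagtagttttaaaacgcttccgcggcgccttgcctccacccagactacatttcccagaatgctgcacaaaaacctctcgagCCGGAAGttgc
Mrpl27, chr11:94653641-94653790, strand plus: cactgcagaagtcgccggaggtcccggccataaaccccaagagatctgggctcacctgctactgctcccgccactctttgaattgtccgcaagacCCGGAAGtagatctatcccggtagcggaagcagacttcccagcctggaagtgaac
Mrpl51, chr6:125192050-125192199, strand plus: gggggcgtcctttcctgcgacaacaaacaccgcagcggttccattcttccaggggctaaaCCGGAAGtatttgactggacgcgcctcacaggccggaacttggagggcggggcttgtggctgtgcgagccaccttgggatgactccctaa
Mrpl12, chr11:120484487-120484636, strand plus: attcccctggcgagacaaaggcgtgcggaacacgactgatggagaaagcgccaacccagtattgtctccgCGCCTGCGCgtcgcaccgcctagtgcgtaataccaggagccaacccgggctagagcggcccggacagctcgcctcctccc
Mrpl50, chr4:49521084-49521233, strand minus: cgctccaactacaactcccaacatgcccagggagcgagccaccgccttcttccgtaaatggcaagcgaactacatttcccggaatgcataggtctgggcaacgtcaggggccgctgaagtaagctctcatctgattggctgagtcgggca
Windows of 250 bases before to 50 bases after the start were found for 67 of the 76 members. The ETS core, searched on both strands as CCGGAAG, was in the window of 38.8% of these 67 members, against 20.6% of 8451 tested genes and 9.93% of 27025 genes with a window. The NRF1 core, searched as GCGCANGCG, was in 23.9% of members, 15.6% of tested genes and 7.03% of all genes. The YY1 core, searched as ANATGGCG, was in 16.4% of members, 8.20% of tested genes and 4.23% of all genes. At least 1 of the 3 cores was in 64.2% of members, 37.3% of tested genes and 18.3% of all genes, and the cores can share bases. Members with the ETS core had a median log2 difference of -0.45 over 26 genes, and those without it had -0.50 over 40 genes. The median was -0.35 with the NRF1 core (16 genes) and -0.48 without it (50 genes), and -0.85 with the YY1 core (11 genes) and -0.44 without it (55 genes). By the probes used in the tests, the same core stood before genes of opposite difference, as in Mrps22 and Mrpl51. Another kept probe gave 0.31 for Mrps22 and -0.34 for Mrpl51, so neither gene had a single direction. The same holds for Mrps7, whose other probe gave -2.41.

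The arrays of the KO group gave signal above the negative controls for 34.2% to 34.9% of all probes, against 48.5% to 50.6% on the WT arrays. A detected signal reached down to a level of 5.36 to 5.41 (log2 normalised intensity) on KO arrays and to 4.62 to 4.67 on WT arrays. The 13 epithelial marker genes were detected on all 6 arrays, with a summed scanner intensity of 15638 to 19759 on KO arrays and 24245 to 27553 on WT arrays. Of 10 lens marker genes, 2 to 4 were detected on a KO array and 5 to 7 on a WT array. The lens list had a summed intensity of 1082.1 to 1490.6 on KO arrays and 1283.9 to 1702.8 on WT arrays, Cryaa and Crybb1 were detected on none, and 1 of 6 tested genes, Cryab, was called higher in KO embryos. Of 12 tested mesenchymal marker genes, 5 were called higher in KO embryos, and the summed scanner intensity of that list was 5760.7 to 7628.1 on KO arrays and 3146.1 to 3380.5 on WT arrays. That of the ocular surface ectoderm markers was 7567.8 to 16986 on KO arrays and 28253 to 32056 on WT arrays. Of 8 tested genes of that list 1 was called lower in KO embryos, Barx2, at a log2 difference of -2.08 (limma adjusted p = 0.024). The summed scanner intensity of the erythroid markers was 4835.6 to 5806.2 on KO arrays and 1529.5 to 1716.9 on WT arrays, with 3 of 5 tested genes called higher. No mesenchymal or erythroid marker on the array was undetected everywhere. The part of these differences in the values of the ribosomal protein genes was not tested, and in such samples fewer cells of a type and less RNA per cell cannot be told apart. None of the 4 probes of Fgfr2 passed the threshold, and the labels do not give the deleted exons, so these probes do not check the genotype. Nothing in the labels says that embryos came from separate litters, so p-values measure only the spread between these samples.

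Among the 75 tested members, Mrps22 was called lower in KO embryos, none was called higher, and 74 did not pass. A call is an adjusted p below 0.05 in limma, with Benjamini-Hochberg adjustment over all 13916 tested items. Over all items 1.59% were called lower and 0.826% were called higher, so 1 of 75 is near that background. The difference was negative for 52 members and positive for 23, or 69.3% negative against 54.3% of all items. The number of negative members was 43 with cyclic loess scaling, 64 with median scaling and 69 with no scaling between arrays. The median log2 difference, KO minus WT, was -0.47 for the members, with quartiles of -1.06 and 0.13, and -0.09 for all items. The gap between these medians was -0.38, and over the alternatives it ran from -0.52 without a filter on dim probes to -0.11 without KO embryo A, where the median of the members was -0.21. By mean level over the 6 arrays, the median was -0.63 for the 25 dimmest members, -0.94 for the 25 in the middle and -0.003 for the 25 brightest. Of these, 17, 22 and 13 were negative. That mean includes the KO arrays, so a member that is low in KO embryos ranks lower. The median near 0 of the brightest members therefore follows in part from the sorting. Every KO array lay below every WT array for 13 members (17.3%), against 17.2% of all items. Every KO array lay above every WT array for 3 members (4.00%), against 11.3% of all items. The ranges of the groups overlapped for the other 59. At an unadjusted p below 0.05 in limma, 9 members were lower and 2 were higher in KO embryos, 14.7% of members against 19.4% of all items.

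**Figure D1:**
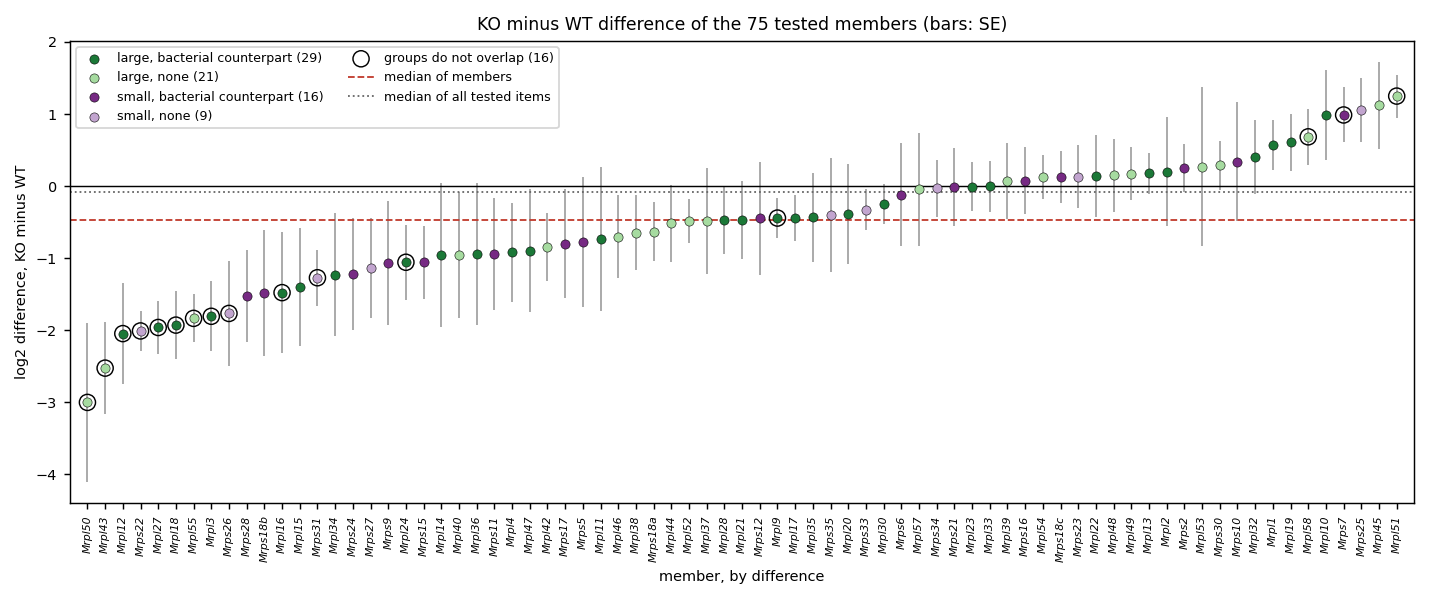
Log2 difference, KO minus WT, of the 75 tested members in order, with the standard error of the limma fit as bars. Colours give the subunit and whether a bacterial counterpart exists, rings mark the 16 members whose groups do not overlap, and dashed and dotted lines give the medians of the members (-0.47) and of all tested items (-0.09). The members run from -3.00 to 1.25 and all 4 classes are found on both sides of 0.

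The classes of members did not stand far apart from each other. The 29 tested proteins of the large subunit with a bacterial counterpart had a median log2 difference of -0.47, with 7 members having every KO array below every WT array and none the other way. The 21 of the large subunit without a counterpart had a median of -0.48, with 3 below and 2 above. The 16 of the small subunit with a counterpart had a median of -0.61, with none below and 1 above, and the 9 without one had a median of -0.40, with 3 below and none above. In this order the shares below were 24.1%, 14.3%, 0% and 33.3%, against 17.2% of all items. The shares above were 0%, 9.52%, 6.25% and 0%, against 11.3% of all items. Per subunit, the median was -0.47 over 50 proteins of the large subunit and -0.45 over 25 of the small subunit. These differences between classes were not tested.

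Mrps22 is a protein of the small subunit with no bacterial counterpart, whose human gene is mutated in some inherited respiratory chain disorders. By its brighter kept probe it was the 1 member called lower in KO embryos. Its scanner intensity was 166, 176 and 192 on the KO arrays, against 704, 681 and 844 on the WT arrays, detected on all 6. After normalisation its level was 6.98, 6.94 and 7.37 in KO embryos, against 9.03, 9.02 and 9.27 in WT embryos (log2 intensity). The groups were far apart and each was tight. The mean was 7.10 ± 0.24 in KO and 9.11 ± 0.14 in WT embryos (SD, n = 3 each), a log2 difference of -2.01 (SE 0.28, limma adjusted p = 0.0304). The second probe of Mrps22 read 8.09, 8.75 and 7.42 in KO embryos, against 7.91, 7.57 and 7.85 in WT embryos. That probe showed overlapping groups and a log2 difference of 0.31, with an adjusted p = 0.748 in the limma fit of every probe, so the probes of Mrps22 disagreed. The call was lost when any 1 WT embryo was left out (limma adjusted p = 0.147 to 0.174) and with a trended, robust variance (limma adjusted p = 0.0591), while the difference stayed between -2.81 and -1.43 over all alternatives, with adjusted p from 0.00584 to 0.184.

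Of the 8 most negative members, 4 were large subunit proteins with a bacterial counterpart, a class of 29 among the 75 tested members. In each of the 8 every KO array lay below every WT array, against 17.2% of all items. The 8 were picked for low values, so this separation follows in part from the choice. Mrpl27, whose bacterial counterpart lies near the site of peptide bond formation, read 5.52, 6.17 and 5.91 in KO embryos, against 8.36, 7.44 and 7.67 in WT embryos. Its log2 difference was -1.96 (SE 0.37, limma adjusted p = 0.0598), just short of the threshold, which it passed with median scaling (limma adjusted p = 0.0111). Mrpl18, of the family that in bacteria binds a small ribosomal RNA of the large subunit, read 5.98, 6.70 and 7.68 in KO embryos, against 8.80, 8.62 and 8.72 in WT embryos. The log2 difference of Mrpl18 was -1.93 (SE 0.47, limma adjusted p = 0.104). Mrpl3, a protein of the conserved core, read 7.18, 7.49 and 5.98 in KO embryos, against 9.04, 8.23 and 8.80 in WT embryos. For both genes the highest KO embryo stayed under the lowest WT embryo, by less in Mrpl3 than in Mrpl18. The log2 difference of Mrpl3 was -1.81 (limma adjusted p = 0.124). Its other kept probe, detected on all 6 arrays, had overlapping groups and a log2 difference of 0.60 in the fit of every probe.

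Mrpl12 and Mrpl10 form the stalk of the large subunit, which recruits translation factors, and neither passed the threshold. Mrpl12, the tip protein, which in human cells also binds the mitochondrial RNA polymerase, read 5.74, 7.94 and 8.28 in KO embryos, against 9.22, 9.19 and 9.69 in WT embryos. KO embryo A was the lowest by more than 2 on the log2 scale, and the other two KO embryos still lay under every WT embryo. The log2 difference was -2.05 (limma adjusted p = 0.189). Mrpl10, the base protein that holds Mrpl12, read 9.47, 10.91 and 10.42 in KO embryos, against 8.28, 10.26 and 9.31 in WT embryos. The groups of Mrpl10 overlapped, and the log2 difference was 0.98 (limma adjusted p = 0.450). The second probe of Mrpl10 gave -1.32 in the fit of every probe, the sign of Mrpl12.

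Among the large subunit proteins without a bacterial counterpart were the 2 members with the most negative differences. Mrpl50 read 6.03, 5.22 and 9.53 in KO embryos, against 9.98, 10.01 and 9.80 in WT embryos. KO embryos A and B were far below the WT range, B without detection, and C was close to it. The log2 difference of -3.00 had an SE of 1.10 and an adjusted p = 0.212 in limma, and without KO embryo C it was -4.30 with an adjusted p = 0.0159. Mrpl43 was detected on none of the 3 KO arrays and on all 3 WT arrays, where it read 5.86, 8.35 and 6.73. It was at least 3.02-fold lower in KO embryos (limma adjusted p = 0.113), with measured means of 4.45 in KO and 6.98 in WT embryos. A bound of this kind sets the WT mean against the lowest detected signal of the KO arrays, or the probe's own signal where that was higher. Such a bound holds for the main processing only. Over the alternatives the log2 difference of Mrpl43 ran from -3.08 to -1.01. A probe detected on WT arrays alone passed the filter through that group. Its bound and p-value are descriptions and give no support for a decrease.

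Mrpl55 and Mrpl9 were the other members detected on no KO array and on all 3 WT arrays. Mrpl55, a protein found only in the mitochondrial large subunit, had detection p-values of 0.989, 0.103 and 0.882 on the KO arrays and at most 0.00107 on the WT arrays. It was at least 1.98-fold lower in KO embryos, with an adjusted p = 0.0543 in limma and measured means of 4.54 in KO and 6.37 in WT embryos. Over the alternatives the log2 difference of Mrpl55 ran from -2.52 to -0.643. Mrpl55 and Mrpl9 also passed the filter through the WT arrays alone, so their values are descriptions too. Mrpl9, with a bacterial counterpart, was dim in both groups. Its level was 4.49, 4.85 and 4.49 in KO embryos, against 4.87, 5.06 and 5.23 in WT embryos. The WT values of Mrpl9 lay under the lowest signal detected on the KO arrays, so no fold is given for it.

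On the positive side no member passed the threshold. Mrpl51, a protein of the large subunit with no bacterial counterpart, read 7.40, 7.98 and 7.90 in KO embryos, against 6.43, 6.40 and 6.70 in WT embryos. The groups did not overlap, and the log2 difference was 1.25 (SE 0.30, limma adjusted p = 0.101). Its scanner intensities before correction were 203, 296 and 251 on KO arrays, against 215, 206 and 248 on WT arrays. On that scale the groups overlapped, and with no scaling between arrays the log2 difference was 0.33. The second kept probe of Mrpl51 gave -0.34 in the fit of every probe.

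Mrps7, a protein of the small subunit head with a bacterial counterpart, read 10.04, 10.93 and 10.05 in KO embryos, against 9.67, 8.99 and 9.40 in WT embryos. Its groups did not overlap, with a log2 difference of 0.99 (limma adjusted p = 0.233). Mrpl58, also known as Ict1, a peptidyl-tRNA hydrolase built into the large subunit that can free stalled peptides, read 9.61, 8.48 and 8.53 in KO embryos, against 8.30, 8.07 and 8.20 in WT embryos. It was the last of the 3 members with every KO array above every WT array, by a narrow margin on arrays B and C, with a log2 difference of 0.68 (limma adjusted p = 0.403). The other members with the most positive values had overlapping groups. They were Mrpl45, which in human cells anchors the ribosome to the inner membrane (1.12, limma adjusted p = 0.375), Mrps25, a small subunit protein without a counterpart (1.05, limma adjusted p = 0.272), Mrpl19 (0.61, limma adjusted p = 0.459) and Mrpl1 (0.57, limma adjusted p = 0.423). Mrpl19 changed sign with median scaling (-0.18) and with none (-0.50), and Mrps25 with none (-0.09).

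**Figure D2:**
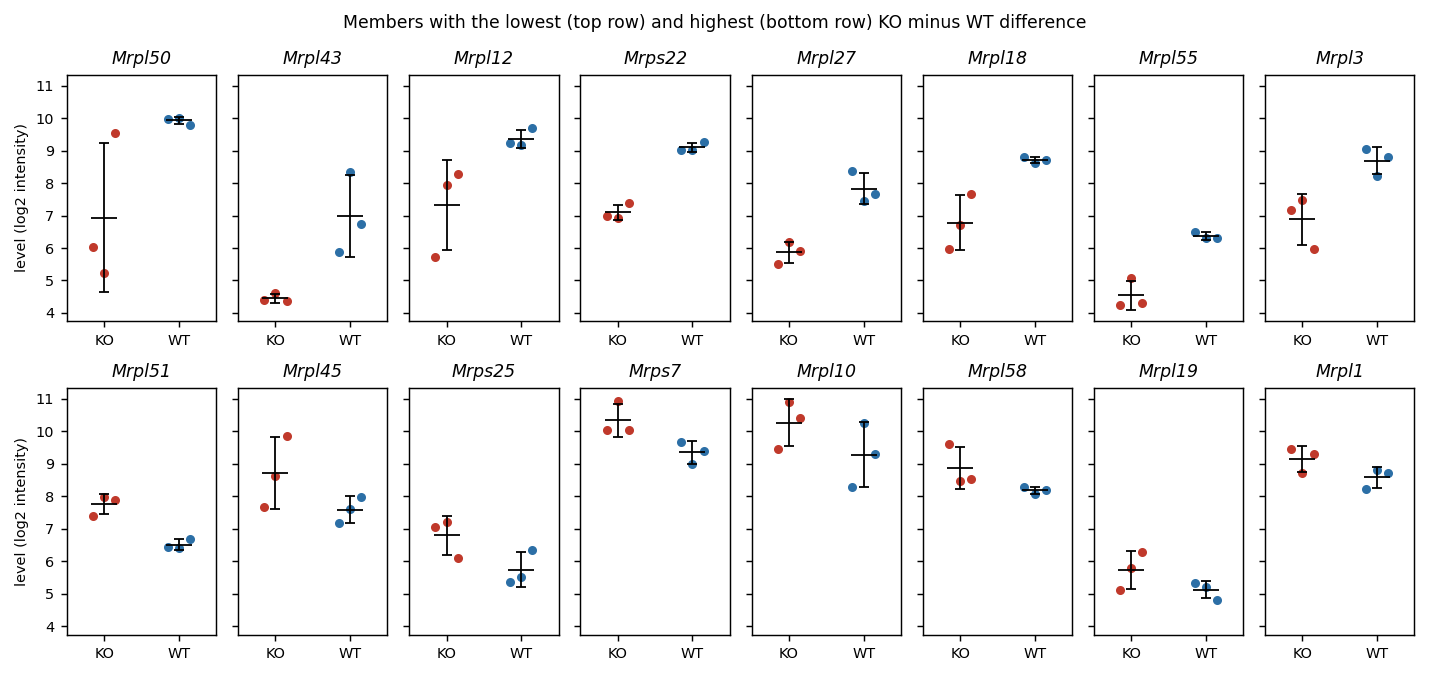
Level on each array (log2 normalised intensity) of the 8 members with the most negative and the 8 with the most positive difference. Dots are embryos A, B and C from left to right, KO in red and WT in blue, with the mean and SD in black. Mrps22 shows a tight pair of groups at 7.10 and 9.11, while KO embryos of Mrpl50 run from 5.22 to 9.53.

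The 5 members with the highest mean over the 6 arrays were named whatever their difference, and since that mean includes the KO arrays, a member that is low in KO embryos ranks lower. Mrps34, a small subunit protein without a bacterial counterpart, had the highest mean over the 6 arrays and stood at 10.61 ± 0.61 in KO and 10.64 ± 0.25 in WT embryos (SD, n = 3 each). It was followed by Mrps18c at 10.59 ± 0.46 in KO and 10.46 ± 0.29 in WT embryos, and by Mrpl23, which lines the exit of the peptide tunnel, at 10.49 ± 0.33 in KO and 10.50 ± 0.38 in WT embryos. Next came Mrpl49 at 10.44 ± 0.57 in KO and 10.27 ± 0.11 in WT embryos, and Mrpl17 at 10.09 ± 0.37 in KO and 10.54 ± 0.22 in WT embryos. Their log2 differences ran from -0.44 to 0.17, none passed (lowest limma adjusted p = 0.510), and the sign of all but Mrpl17 turned under at least 1 alternative. Levels of different genes come from different probes, so this order is not one of transcript abundance.

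KO embryos varied more than WT embryos in 66 of the 75 members, and in 11553 of the 13916 items. The median SD of a member was 0.91 between KO embryos and 0.29 between WT embryos, against 0.80 and 0.30 over all items, so the wide spread was shared with the rest of the array. The range over 3 embryos was above 2 on the log2 scale, a 4-fold span, for 31 members in KO and for 1 in WT. Mrpl53, a large subunit protein without a bacterial counterpart, read 4.45, 8.81 and 5.40 in KO embryos, against 5.98, 6.09 and 5.79 in WT embryos, with KO embryo B far above the others. Mrpl36, with a bacterial counterpart, read 5.65, 9.67 and 7.23 in KO embryos, against 8.69, 8.18 and 8.51 in WT embryos. Mrpl14, whose bacterial counterpart touches the small subunit, read 9.27, 5.63 and 5.93 in KO embryos, against 7.46, 8.20 and 8.04 in WT embryos. KO embryo B was the highest of its group for Mrpl53 and Mrpl36, A for Mrpl14 and C for Mrpl50.

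**Figure D3:**
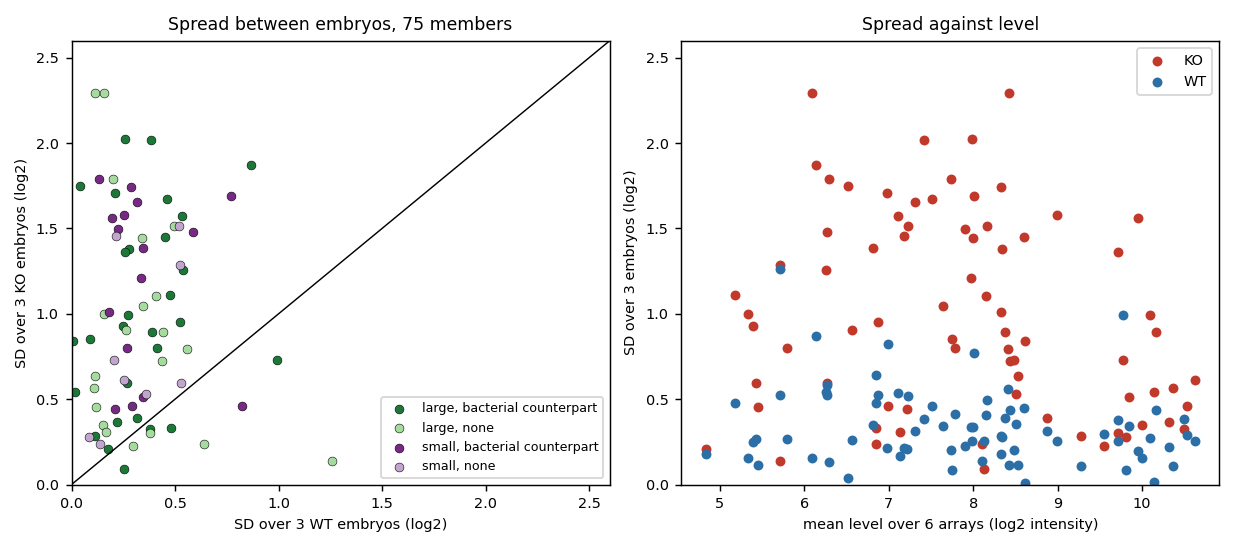
Left, SD over 3 KO embryos against SD over 3 WT embryos of each of the 75 members (log2 scale), with the line of equal SD. Right, both SDs against the mean level over 6 arrays, KO in red and WT in blue. Of 75 members, 66 lie above the line of equal SD.

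The embryo that read lowest differed from member to member. KO embryo A was the lowest of the KO group for 36 members, B for 19 and C for 20, so A read lowest most often. KO embryo A was below every WT embryo for 42 members and above every one for 19, B for 37 and 25, and C for 41 and 22. These counts were not made over all items, whose KO spread was wide too, so they do not mark out the members. Across the 75 members, levels correlated at r = 0.618 to 0.673 between KO arrays, 0.653 to 0.764 between a KO and a WT array, and 0.909 to 0.950 between WT arrays. Over all tested items the ranges were 0.700 to 0.706, 0.746 to 0.768 and 0.939 to 0.959, so the order was shared with the rest of the array. These correlations are across genes, which are not independent replicates, and arrays share the probes. KO arrays were thus less alike among themselves than WT arrays were, over the members and over all items.

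Detection showed the same scatter. Of the 75 tested members, 63, 67 and 64 were detected on KO arrays A, B and C, and all 75 on each WT array. By probe, 62.9%, 65.9% and 63.6% of the 132 member probes were detected on the KO arrays, against 87.9%, 84.8% and 87.9% on the WT arrays. In KO embryos 56 members were detected on 3 arrays, 10 on 2, 6 on 1 and 3 on none. Of the 10 that were missing once, 5 were missing on array A (Mrpl19, Mrpl32, Mrpl47, Mrpl53 and Mrps11), 2 on B (Mrpl15 and Mrpl50) and 3 on C (Mrpl16, Mrpl4 and Mrps26). Different members were missing in different KO embryos. On the WT arrays, 5, 2 and 3 of the members lay under the highest of the KO detection limits, 5.41, and counted as detected there, while 12, 8 and 12 lay under it on the KO arrays. The filter asked for detection on 3 of 6 arrays, so a member detected only on WT arrays could pass through that group. The counts of members by detection are therefore descriptions, as are the bounds and p-values of such members.

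**Figure D4:**
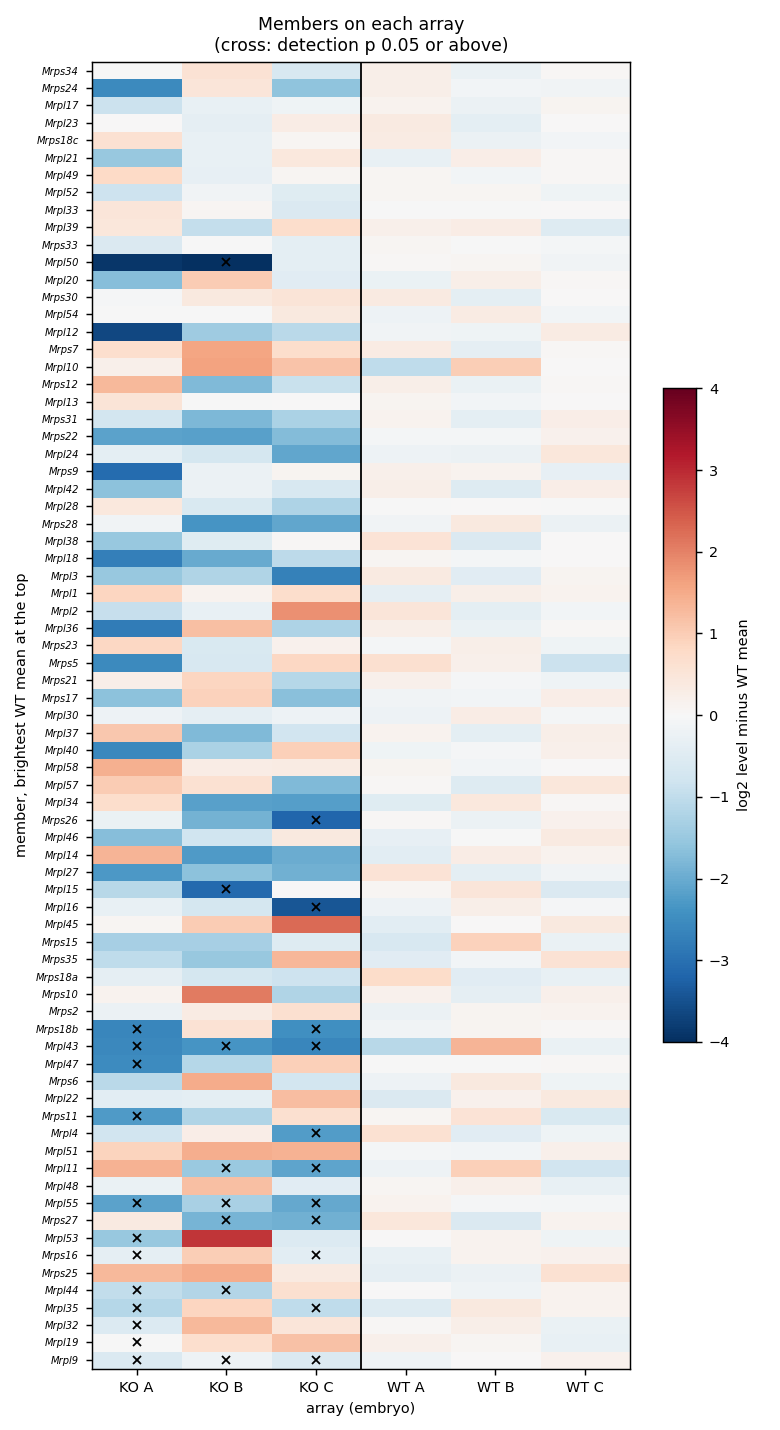
Level of each tested member on each array, KO left and WT right, as log2 level minus the mean of the WT arrays (blue lower, red higher, colours ending at 4 either way), with members ordered by WT mean. Crosses mark readings that were not detected, 12, 8 and 11 on KO arrays A, B and C and none on WT arrays. Blue and red alternate between KO embryos within a row, and crosses gather at the dim end, with Mrpl50 as the brightest member that has one.

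Probes of 1 gene often disagreed. Of the 33 members with several probes, 26 had more than 1 that passed the filter, and in 15 of these the log2 differences had opposite signs. The median gap between the lowest and highest probe of a gene was 1.21 and the widest was 3.40. The second probe of Mrps7 was detected on no KO array and all 3 WT arrays, at least 2.72-fold lower in KO embryos, while its brighter probe gave 0.99. Mrps25 had 2 further probes detected on no KO array, at least 1.84-fold and 1.48-fold lower (limma adjusted p = 0.0687 and 0.0942 in the fit of every probe), against 1.05 for its brightest probe. Mrps31, a small subunit protein without a counterpart, had log2 differences of -1.27 for its brightest probe and 0.56 for another, and a further probe was at least 2.79-fold lower in KO embryos. The probes of Mrps7, Mrps25 and Mrps31 given by a bound passed the filter through the WT arrays alone, so these values are descriptions. Such genes had no single direction over their probes, and no source used here says which transcript each probe reads.

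The other members with probes of opposite sign were Mrps9, Mrpl38, Mrpl37, Mrps12, Mrps23, Mrpl48, Mrpl49 and Mrpl13. Mrps12, whose bacterial counterpart helps to read the codon, ran from -0.45 to 0.95, and Mrpl38 ran from -0.65 to 0.79. Mrps9 ran from -1.07 to 0.23 and Mrpl48 from -0.97 to 0.15. Mrpl37, Mrps23, Mrpl49 and Mrpl13 had gaps of 0.51, 0.61, 0.87 and 0.87 between their lowest and highest probe. Both negative and positive main values were thus affected.

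**Figure D5:**
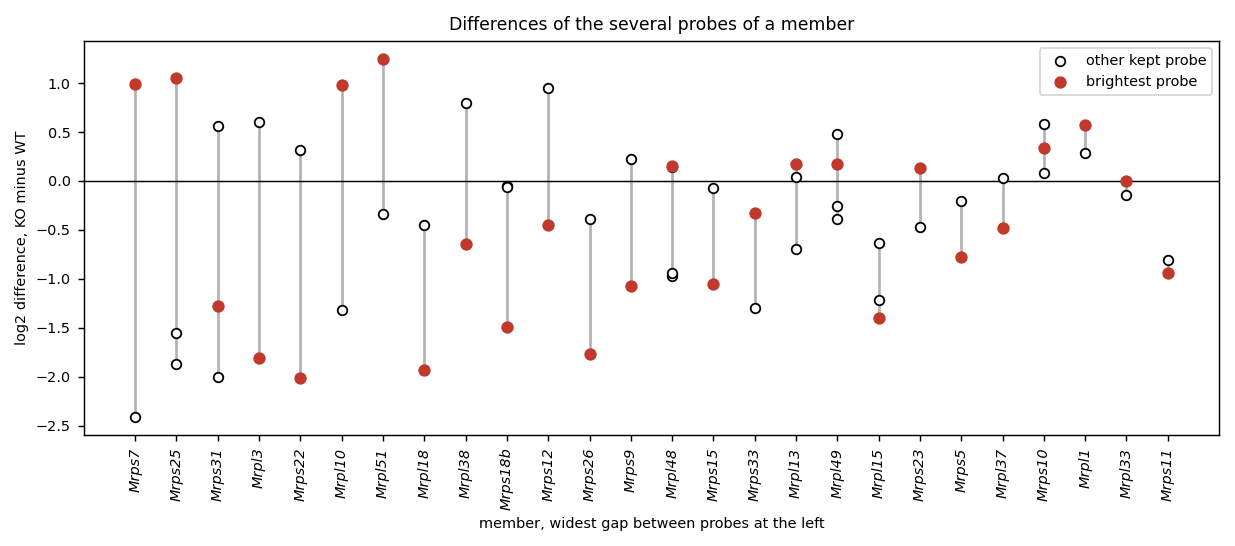
Log2 difference, KO minus WT, of each kept probe of the 26 members with several kept probes, ordered by the gap between them. Filled dots are the brightest probe, which was used in the tests, and open dots are the others. In 15 members the probes lie on both sides of 0, and the widest gap is 3.40, in Mrps7.

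Over 76 tested genes of mitochondrial translation, ribosome assembly, transfer RNA charging, transcription and import, none passed in either direction, and the median log2 difference was -0.52, with 53 negative and 23 positive. At an unadjusted p below 0.05 in limma 9 were lower and 4 higher in KO embryos, 17.1% of these genes against 19.4% of all items. Every KO array lay below every WT array in 15 of them (19.7%, against 17.2% of all items) and above in 5 (6.58%, against 11.3%). The 4 tested ribosome proteins that go under other names (Chchd1, Ptcd3, Dap3 and Gadd45gip1) were all negative, with a median of -1.45. The 13 tested translation factors had a median of -0.24, the 18 assembly and RNA modification genes -0.26, the 19 genes of transfer RNA charging -0.25, the 11 of mitochondrial transcription and biogenesis -0.998, and the 11 of import and insertion -0.51. Every KO array lay below every WT array in 2 of the proteins under other names, 2 factors, 2 assembly genes, 2 charging genes, 4 transcription genes and 3 import genes. In this order the shares were 50%, 15.4%, 11.1%, 10.5%, 36.4% and 27.3%, against 17.2% of all items.

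Single genes of these lists, chosen after their values were seen, had values on both sides. Tufm, the factor that brings transfer RNA to the mitochondrial ribosome, read 8.32, 8.49 and 9.38 in KO embryos, against 9.98, 10.51 and 10.17 in WT embryos. Its groups stood apart, with a log2 difference of -1.49 (limma adjusted p = 0.116). Twnk, the helicase that unwinds mitochondrial DNA for its replication, had a log2 difference of -2.26 (limma adjusted p = 0.0832). Wars2, which charges mitochondrial tryptophan transfer RNA, read 10.80, 10.47 and 10.75 in KO embryos, against 9.75, 9.52 and 9.39 in WT embryos. Every KO embryo exceeded every WT embryo for Wars2, with a log2 difference of 1.12 (limma adjusted p = 0.105). The genes of the factors whose motifs were searched did not pass, with log2 differences of -0.97 for Nrf1 (limma adjusted p = 0.573), 0.16 for Gabpa (limma adjusted p = 0.925) and -1.53 for Yy1 (limma adjusted p = 0.205). Yy1 was the one of these with every KO array below every WT array.

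The cytosolic ribosomal protein genes and the nuclear genes for respiratory chain subunits, the 2 sets most like the members, were set beside them. Of 60 tested cytosolic ribosomal protein genes 2 were called lower, against 1.59% of all items. In that set 40 (66.7%) had every KO array below every WT array, with a median log2 difference of -0.56. Of 72 tested respiratory chain genes none was called, 16 (22.2%) had every KO array below every WT array and 2 above, with a median of -0.28. The members had 17.3% and -0.47, and all items had 17.2% and -0.09. Median SDs between KO embryos were 0.91 for the members, 0.25 for the cytosolic set and 0.56 for the respiratory chain set. The median WT levels of these sets were 8.25, 11.6 and 10.04 (log2 intensity), so the members were the dimmest. The part of level and spread in the shares without overlap was not tested. The medians of the 3 sets were all negative, and the difference between sets was not tested.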

How the data were processed

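RNA of 1 embryo per array was amplified and hybridised to an Illumina BeadChip, 3 KO and 3 WT arrays on 1 slide. The scanner table deposited by the authors gives an average intensity per probe, its standard error as a signal, the counts of beads and a detection p-value, per the file headers. These intensities are neither background-corrected nor normalised between arrays. The authors' processed intensity values were made in GenomeStudio, per the submitters' processing notes, with a version and method not given in the sources used here, and served as an alternative. The number of arrays limits the precision.

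Intensities were corrected, quantile normalised and log2 transformed by the neqc function of limma 3.58.1 in R 4.3.3 (offset 16, background from the detection p-values). The filter kept 20853 of 45281 probes, those detected (p below 0.05) on 3 or more of the 6 arrays. The probe with the highest mean over 6 arrays stood for each gene, which gave 13916 items. KO was compared with WT by lmFit and eBayes, fitting genotype alone. Every adjusted p comes from limma over all items. Gene names come from the platform annotation, updated through gene identifiers. Named members were those called, the 8 lowest and 8 highest differences, the 5 brightest, the 4 with the widest KO spread, those undetected in 1 group and those with probes of opposite sign. The members and lists were chosen with earlier results of these data known. Same-lettered KO and WT embryos did not deviate together (r = -0.0288, -0.00425 and -0.00519), and 59.0% to 79.9% of detected probes differed within a group by more than bead error. Plots were made in matplotlib 3.10.9 (Python 3.11.15). Alternatives covered background, offset, scaling, filter, probe choice, variance, array weights, a replicate block, the authors' values, the threshold and each embryo left out.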

Additional observations from a re-analysis of the deposited data

How the results depend on the processing

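No member was called higher in KO under any alternative run, and the median difference of the members was negative under all of them. Median scaling moved it to -0.81 and no scaling to -1.13, which shifted the median of all items by -0.40 and -0.72. The median of the members was nearer 0, at -0.216 with cyclic loess, -0.252 with the strict filter and -0.212 without KO embryo A. Cyclic loess shifted the median of all items by 0.18 and testing without a filter by 0.15. The count of members called lower was 5 with median scaling, 8 with no scaling, 2 without a filter, 2 with the authors' processed values, 3 at an adjusted p below 0.10, and 0 with a trended, robust variance (11 members at an unadjusted p below 0.05, 151 lower and 85 higher calls over all items in limma). Leaving out 1 embryo gave 0 to 4 members, none without any 1 WT embryo, and 4, 4 and 3 without KO embryos A, B and C, with Mrps22 among them each time. Mrps22 was lost in 5 alternatives. Over all items 336 calls became 1068 with median scaling, 2068 with no scaling, 660 without a filter, 189 with a strict filter, 185 with array weights, 764 at an adjusted p below 0.10, and 12 to 563 with 1 embryo left out (12, 19 and 28 without a WT embryo). Of the calls, 65.8% were lower in KO, against 90.2% with median scaling, 51.8% with loess and 95.8% with none. Lower calls over all 13916 items numbered 963 under median scaling and 1981 when arrays were left unscaled, against 221 in the main processing. The 5 and 8 of 75 members called lower there thus came with a rise over the whole array. These member counts do not mark out the members. With the replicate block, limma called 0 items and 0 members (2079 items and 10 members at an unadjusted p below 0.05, and 0.184 as the adjusted p of Mrps22). The labels do not say what the shared letters mark, and same-lettered embryos did not deviate together. The causes were not tested.

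None of the members whose sign turned was called. Under median scaling Mrpl19 was -0.183, Mrpl53 -0.325, Mrps23 -0.167 and Mrpl48 -0.737. With no scaling Mrps25 was -0.0945, Mrpl19 -0.502, Mrps18c -0.298, Mrpl49 -0.256, Mrpl53 -0.644, Mrps23 -0.486, Mrpl48 -1.06 and Mrpl13 -0.31. With loess Mrps34 was 0.0939 and Mrpl23 0.14. With 1 embryo left out, Mrps34 ran from -0.339 to 0.275, Mrpl23 from -0.207 to 0.174, Mrps18c from -0.113 to 0.347, Mrpl49 from -0.135 to 0.423, Mrpl53 from -1.03 to 1.15, Mrpl37 from -1.27 to 0.157, Mrps12 from -1.32 to 0.203, Mrps23 from -0.219 to 0.51 and Mrpl48 from -0.368 to 0.462. Signal near the detection limit makes the size of the difference imprecise for the dim members.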
